A study of Mus musculus with 15 samples.

Results

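The transcripts described here were low or little changed in mouse macrophages during the first hour after lipopolysaccharide (LPS) and clearly higher at 2 h and at 4 h. They numbered 324 of the 113193 transcripts quantified. The members were chosen by their measured levels in these same libraries. A member had a mean under 2-fold over untreated cells at 30 min and at 1 h, at least 4-fold at 2 h and at 4 h, and at least 5 TPM (transcript level scaled for length and depth) at 2 h. In addition, its level in all 6 libraries of 2 h and 4 h lay above all 3 untreated libraries. TPM were rescaled to a sum of 1000000 in each library after the most abundant transcript was left out, and 1 was added to both means before a fold was taken. The rise at 2 h and 4 h over untreated cells and the flat first hour are therefore how the set was defined and are given as description only.

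The cells were bone marrow-derived macrophages of C57BL/6 mice, grown in culture from bone marrow with L929-conditioned medium and used at day 7 of differentiation. All groups had the same strain and culture. They were untreated cells and cells given 10 ng/ml LPS for 30 min, 1 h, 2 h or 4 h, each with 3 libraries. The RNA sequenced, unstranded, was that bound to chromatin, which is rich in RNA still being made. Nothing in the labels says whether replicates came from separate animals or cultures. The p-values below therefore rest on a spread between libraries that may be technical. In bulk samples such as these, fewer cells carrying a transcript and less of it per cell cannot be told apart.

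LPS is a component of the outer membrane of Gram-negative bacteria that macrophages sense through Toll-like receptor 4. The transcription factors that are already present in resting cells, among them NF-kB and the interferon regulatory factors, act first and raise a primary set of genes. A secondary set follows later, because it needs newly made proteins, interferon beta acting back on its receptor, or remodelling of nucleosomes at its promoters and enhancers. The files name transcripts by Ensembl transcript identifiers only, and the reference table used here, with 49997 genes, matched 0 of them. No member can therefore be assigned here to a gene or to any of these sets. Gene groups, cell type markers and promoters were not analysed for the same reason, and isoforms of a single gene, which are not independent, count as separate members.

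The conditions removed transcripts in steps. Of the 113192 transcripts left after the most abundant one, 2176 were at least 4-fold over untreated cells at 2 h, 1368 of these also at 4 h, and 1278 also had at least 5 TPM at 2 h. The flat first hour left 488, and the condition on single libraries left 324. At the edge of the set, the members closest to the 4-fold limit at 2 h had folds of 4.016 and 4.032, and the transcripts just outside it had 3.996 and 3.996. The member nearest the limit had mean levels of 110.7 TPM at 2 h and 26.8 TPM in untreated cells. Of the 2 transcripts just outside, the one of higher level had 59.8 TPM at 2 h and 14.2 TPM in untreated cells. The limit thus separates transcripts that hardly differ in fold.

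The most abundant transcript, left out here, held 5.94% to 27.0% of the deposited TPM of a library. Together the members made up a small part of the remaining TPM before 2 h and several percent of it afterwards. Their summed level was 0.414% ± 0.192 of the rescaled TPM in untreated cells, 0.348% ± 0.170 at 30 min and 0.4398% ± 0.178 at 1 h (SD, n = 3 each). It was 3.06% ± 0.804 at 2 h and 4.62% ± 1.27 at 4 h (SD, n = 3 each). The 10 largest members of a library held 23.3% to 35.7% of this sum, so that it was spread over many transcripts. The median member had a mean of 6.99 TPM in untreated cells, 4.81 TPM at 30 min, 6.25 TPM at 1 h, 49.6 TPM at 2 h and 76.7 TPM at 4 h. Median folds over untreated cells were 0.887 at 30 min, 1.02 at 1 h, 6.27 at 2 h (quartiles 5.03 and 8.65) and 8.50 at 4 h (quartiles 5.93 and 16.3). The 27705 other transcripts with at least 5 TPM at 2 h had median log2 folds of -0.26, -0.30, -0.20 and -0.50 at the 4 times. TPM have a fixed sum, and a fold of 1 on this scale lay above the typical transcript.

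**Figure D1:**
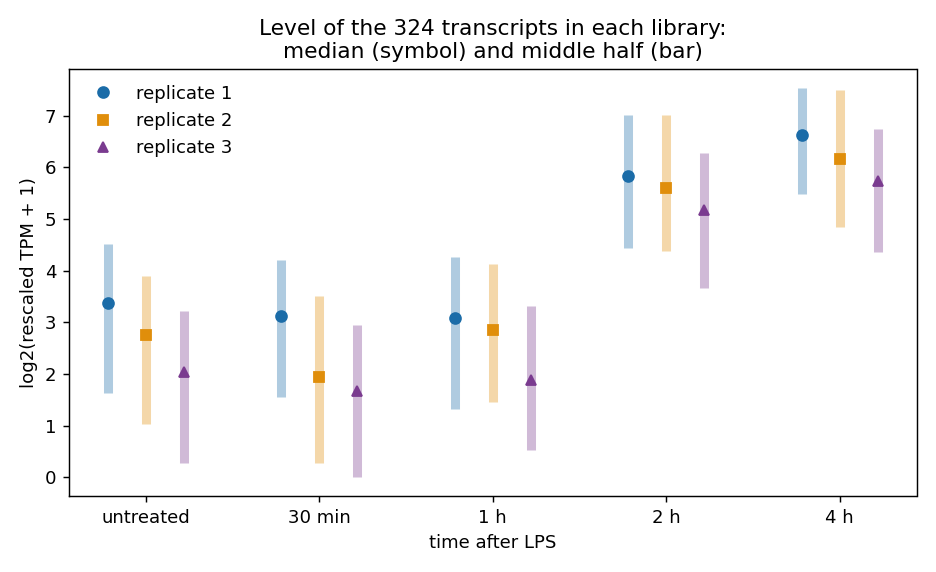
Level of the 324 members in each of the 15 libraries, on the log2(rescaled TPM + 1) scale, by time after LPS and replicate number. Symbols are medians over members and bars run from the first to the third quartile. Medians lay between 2.19 and 9.41 TPM in the untreated, 30 min and 1 h libraries and between 34.9 and 97.8 TPM in the 2 h and 4 h libraries.

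Most members were present before the stimulus, and few had no count at all in untreated cells. The untreated mean was at least 10 TPM for 125 members, from 1 to 10 TPM for 144 and under 1 TPM for 55. The estimated count was 0 in all 3 untreated libraries for 11 members, and 2 of these had no count at 30 min or 1 h either. Against a floor of 3 counts in each untreated library, the 11 were at least 1.49-fold to 42.1-fold higher at 2 h than in untreated cells, and for 4 of them this bound lay under 4. At 4 h the bounds ran from at least 2.43-fold to at least 309.8-fold. The floor covers counting error only.

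The strongest of these 11, a transcript 648 nt long that was picked with its values in view, had no count in any untreated or 30 min library. At 1 h it had 0.0792 TPM in replicate 1 and 0 in the other libraries. Its levels were 190.3, 57.5 and 64.0 TPM in the 3 libraries at 2 h and 1807, 437 and 50.6 TPM at 4 h. Every library of 2 h and 4 h had the transcript, but the 2 times overlapped, with replicate 3 at 4 h below all libraries of 2 h.

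The most abundant member by its mean over 2 h and 4 h was ENSMUST00000135184.7, of 2967 nt. It had 121.7, 31.7 and 23.4 TPM in untreated replicates 1, 2 and 3, then 66.2, 30.5 and 20.4 TPM at 30 min and 67.7, 40.7 and 13.9 TPM at 1 h. At 2 h it had 1415, 1188 and 363.9 TPM, and at 4 h 2859, 1925 and 1936 TPM. Replicate 1 was the highest library at every time, and all libraries of 4 h lay above all of 2 h. Its change from 2 h to 4 h was 1.36 on the log2 scale and did not pass the test (edgeR quasi-likelihood test, adjusted p = 0.821; 1.62 and adjusted p = 0.1165 with the replicate number as a block).

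Next in level was ENSMUST00000113768.7, of 2695 nt. Its untreated libraries differed most, with 57.6 TPM in replicate 1 against 0.728 and 2.47 TPM in replicates 2 and 3. At 30 min it had 52.0, 5.01 and 1.47 TPM, and at 1 h 30.3, 9.64 and 0.547 TPM. At 2 h it had 1174, 913.8 and 156.3 TPM and at 4 h 2940, 1779 and 1059 TPM, so the groups of 2 h and 4 h overlapped. In replicate 1 this transcript stood above its level in the other replicates at each of the 5 times, and the gap was widest before 2 h. The log2 change from 2 h to 4 h was 1.55 (edgeR, adjusted p = 1; 2.01 and adjusted p = 0.443 with the block).

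**Figure D2:**
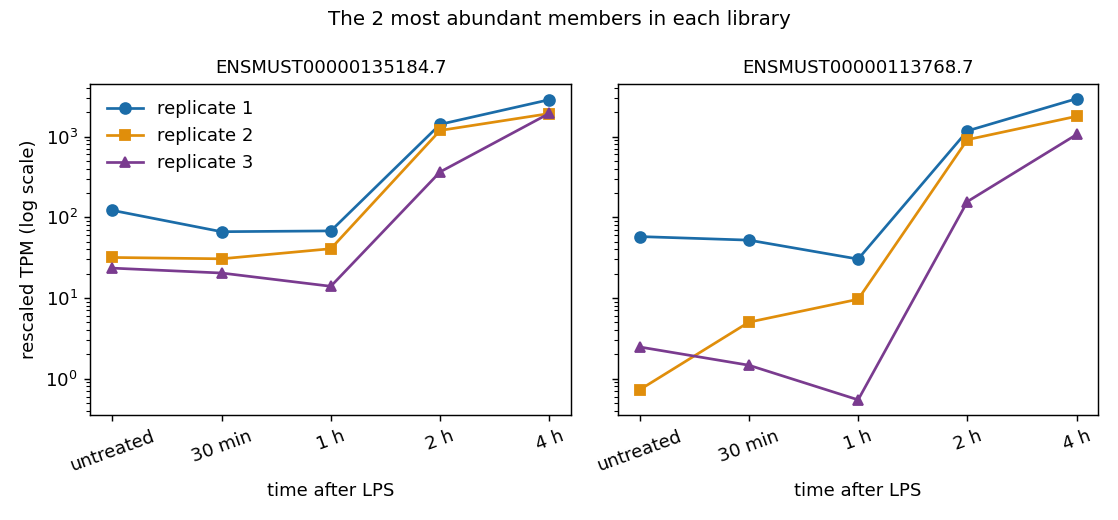
Rescaled TPM, on a log axis, of the 2 most abundant members in each library by time after LPS, with lines joining libraries of the same replicate number. Both transcripts were higher at 2 h than at 1 h in all 3 numbers, and ENSMUST00000113768.7 started at 57.6 TPM in untreated replicate 1 against 0.728 and 2.47 TPM in the others.

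The first question the rule leaves partly undecided is what the members did between 2 h and 4 h. The median ratio of the 4 h mean to the 2 h mean, with 1 TPM added to each here and below, was 1.35 (quartiles 1.03 and 2.03). The 4 h mean was above the 2 h mean for 253 of 324 members (78.1%), at least 1.5 times it for 144 (44.4%) and at least 2 times it for 87 (26.9%). It was at most 0.5 of the 2 h mean for 1 member. The rule holds the lower side of this ratio up, since a member had to stay 4-fold over untreated cells at 4 h, but it sets no upper limit. Leaving out transcripts that fell also raises the share of members that rose. Among the 99 members at 8-fold or more over untreated cells at 2 h, 1 was at most 0.5 of its 2 h mean. In the same 99, 40 were at least 2 times higher at 4 h than at 2 h. A fall to 0.5 was only just allowed at 8-fold, and transcripts that fell under 4-fold at 4 h were left out. These counts are therefore shaped by the rule and do not show how often such transcripts fell. Among the 27705 other transcripts with at least 5 TPM at 2 h, the 4 h mean was above the 2 h mean for 33.3%. It was at least 1.5 times the 2 h mean for 9.87% of these others. For 1041 (3.76%) it was at least 2 times the 2 h mean, and for 4640 (16.7%) at most 0.5 of it.

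Dropping the conditions at 4 h gave a wider view of the same start. The conditions up to 2 h alone were met by 473 transcripts, of which 324 (68.5%) were the members. Of the 473, 366 were at least 4-fold over untreated cells at 4 h and 36 were under 2-fold. Their median log2 ratio of 4 h to 2 h was 0.16, with 91 at least 2 times higher at 4 h and 61 at most 0.5 of the 2 h mean. These 473 were chosen for high values at 2 h, so that a lower value at 4 h is favoured by the choice.

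**Figure D3:**
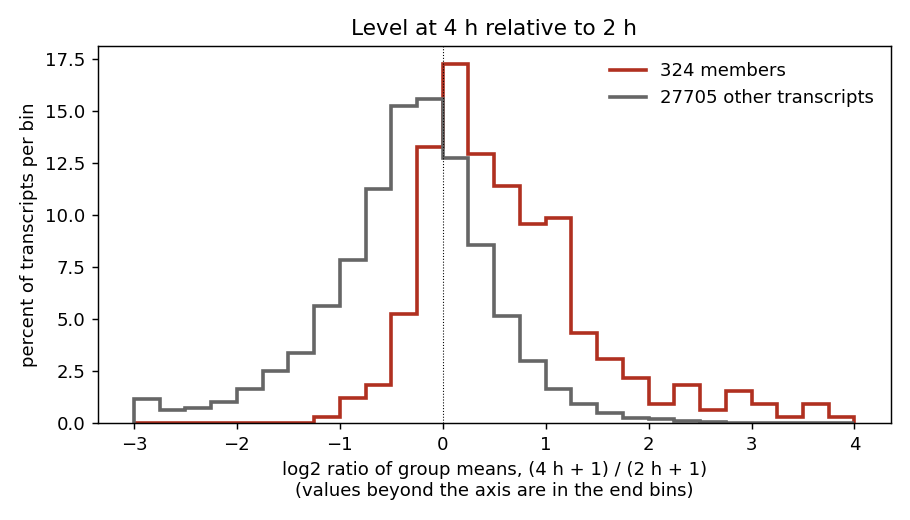
Distribution of the log2 ratio of the 4 h mean to the 2 h mean (1 TPM added to each), as percent of transcripts in bins of equal width, for the 324 members and the 27705 other transcripts with at least 5 TPM at 2 h. The median was 0.43 for members and -0.27 for the others, and the rule limits the members' lower tail.

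None of these differences passed the edgeR test without the replicate number in the fit, and 11 passed with it. The fit without it counts differences between replicate numbers as spread. On the log2(TPM + 1) scale these held 57.3% of the members' variance within groups, and 55.8% of that of the 27705 other transcripts. Part of such a share arises from sampling alone, and that part was not taken off. Of the 324 members, 319 passed the filter on low counts and were tested among 46186 transcripts. At 4 h against 2 h, edgeR called 0 members raised and 0 lowered (adjusted p under 0.05), where it called 0.013% of all transcripts raised and 0.039% lowered. An unadjusted p under 0.05 was found for 34 members (10.7% of those tested), all higher at 4 h, and for 6.78% of all transcripts in either direction. DESeq2 called 12 members raised (3.76%) and 0 lowered, against 0.745% and 0.968% of all transcripts. Limma on log2(TPM + 1) called 0 members. With the replicate number as a block, edgeR called 11 members raised (3.45% of those tested) and 0 lowered, against 0.338% and 0.491% of all transcripts. By level, all 3 libraries of 4 h lay above all 3 of 2 h for 44 members (13.6%), against 2.48% of the transcripts with at least 5 TPM at 2 h. They lay below for 0 members, against 11.1%, a side that the rule limits. The conditions at 4 h left out transcripts that fell, which also raises the members' shares on the upper side. The shares of members and of all transcripts are therefore not a like comparison.

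The 11 members that passed with the block had log2 changes from 1.47 to 4.08 and adjusted p from 0.00855 to 0.0442. All 11 were higher at 4 h in each of the 3 same-numbered pairs of libraries, and in 9 the 2 times did not overlap. The block fit picked these members by change within the same pairs, so their order in the pairs is description only. Without the block their adjusted p lay between 0.160 and 0.848, and DESeq2 called 4 of them. They were 684 to 4993 nt long, and 3 had an untreated mean under 1 TPM, 6 from 1 to 10 TPM and 2 of at least 10 TPM.

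The most abundant of the 11, of 2836 nt, had 1980, 613 and 751.6 TPM at 4 h, against 269, 127.9 and 48.5 TPM at 2 h. Its untreated libraries had 39.2, 9.97 and 17.8 TPM. The 4 h libraries were all above those of 2 h, which in turn were all above the untreated ones. The member of smallest adjusted p with the block, of 4509 nt, had 294.9, 150.0 and 35.3 TPM at 4 h, against 21.8, 15.6 and 3.42 TPM at 2 h. It stayed between 0.651 and 2.37 TPM in all untreated, 30 min and 1 h libraries (log2 change 3.68 with the block, adjusted p = 0.00855 in edgeR). A member of 814 nt with no count in untreated cells had 74.8, 201.2 and 39.8 TPM at 4 h, against 4.30, 26.2 and 3.47 TPM at 2 h. In these 3 examples the level at 4 h was several times that at 2 h in each same-numbered pair.

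The ratio of 4 h to 2 h was larger where the untreated level was lower. Members with an untreated mean under 1 TPM had a median ratio of 4 h to 2 h of 2.54 (quartiles 1.52 and 5.02, 34 of 55 at 2 or more). Those from 1 to 10 TPM had 1.46 (1.04 and 2.05, 38 of 144), and those of at least 10 TPM had 1.15 (0.997 and 1.535, 15 of 125). The same order appeared in the median fold over untreated cells at 4 h, with 18.9, 9.07 and 6.67, and at 2 h, with 8.02, 6.22 and 5.57. Folds over untreated cells share the untreated mean with the grouping. The ratio of 4 h to 2 h does not contain it, but the rule's 4-fold floors tie both of its means to the untreated level. Members under 1 TPM in untreated cells also had a median of only 8.68 TPM at 2 h, near the rule's floor of 5 TPM. This comparison was made after the values were seen and was not tested.

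**Figure D4:**
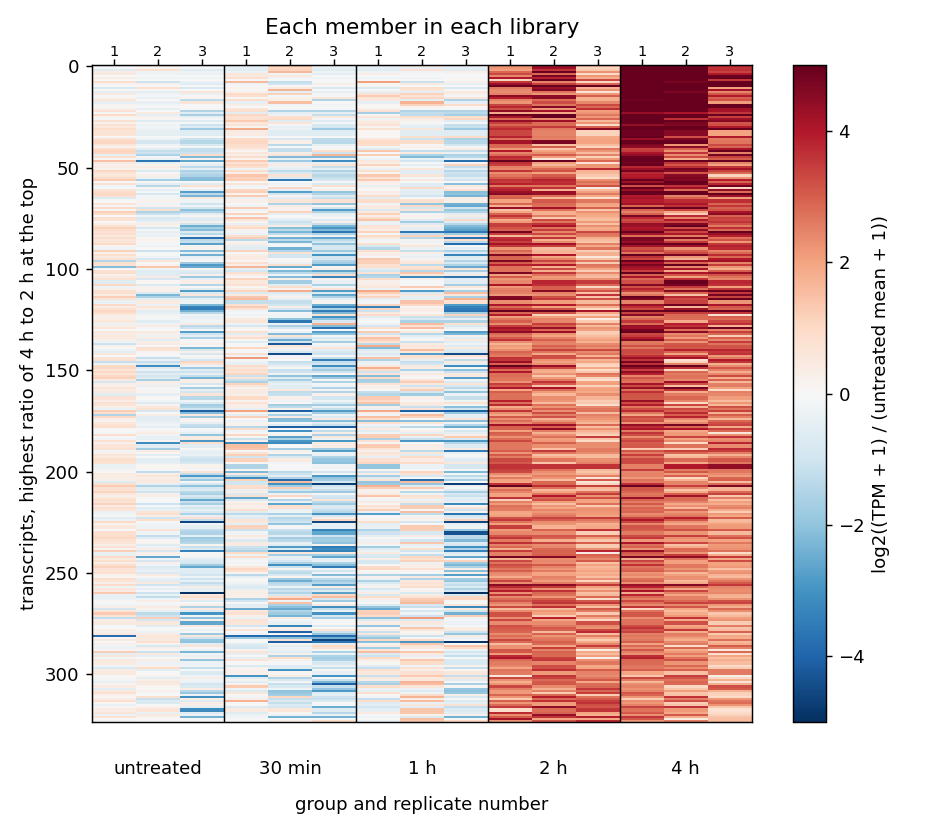
Each of the 324 members (rows, ordered by the ratio of 4 h to 2 h, highest at the top) in each of the 15 libraries (columns), as log2 of TPM + 1 over the untreated mean + 1, with colours capped at 5 in either direction. The first 9 columns are near or below 0 and the last 6 above it, and rows at the top were higher at 4 h than at 2 h.

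The second question the rule leaves partly undecided is whether the members moved between 30 min and 1 h. The 1 h mean was above the 30 min mean for 212 of 324 members (65.4%), against 50.5% of the 27705 other transcripts. The median log2 ratio was 0.18 for members (quartiles -0.13 and 0.59), against 0.01 for the others. At 1 h against 30 min, edgeR called 0 members raised and 0 lowered, and 0% of all transcripts were called in either direction with or without the block. At an unadjusted p under 0.05, 12 members were higher and 2 lower (4.39% of those tested), near the 4.71% of all transcripts in either direction. DESeq2 called 1 member raised and 1 lowered (0.313% each), near the 0.23% and 0.253% of all transcripts, and limma called 0. All 3 libraries of 1 h lay above all 3 of 30 min for 14 members (4.32%), against 4.86% of the transcripts with at least 5 TPM at 2 h, and below for 4 (1.23%), against 3.73%. The rule's ceiling of 2-fold over untreated cells at both times limits how far a member could differ between them.

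The rule set a ceiling on the first hour and no floor, and some members then lay under their untreated level. At 30 min the mean fold was under 1 for 201 members (62.0%), against 67.1% of the 27705 other transcripts, and at most 0.5 for 44. At 1 h it was under 1 for 153 members (47.2%), against 64.5% of the others, and at most 0.5 for 23. All 3 libraries lay below all 3 untreated libraries for 16 members (4.94%) at 30 min, against 11.8% of the transcripts with at least 5 TPM at 2 h, and for 13 (4.01%) at 1 h, against 16.5%. The fold was at most 0.5 for 13.6% of the members at 30 min, against 14.2% of the 27705 other transcripts, and for 7.10% at 1 h, against 18.6%. These shares were not tested against each other. At the upper edge, 25 members (7.72%) reached 1.5-fold or more at 30 min, against 12.2% of the other transcripts. At 1 h 61 members (18.8%) did, against 16.4%. The ceiling of 2-fold bound the members and not the others.

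Counts of members that passed the test against untreated cells follow from the choice and are given for completeness. At 2 h, edgeR called 139 of the 319 tested members raised (43.6%), where 1.97% of all transcripts were called raised. With the block it called 264 (82.8%), against 6.42%. At 4 h, 233 members (73.0%) were called raised, against 3.91% of all transcripts, and with the block 297 (93.1%), against 8.87%. The 139 members called at 2 h were all called at 4 h as well. The count at 2 h fell whichever untreated or 2 h library was left out. Dropping untreated replicate 1 gave 51 members, dropping replicate 2 gave 13 and dropping replicate 3 gave 31. For the 2 h libraries, dropping replicate 1 gave 51, replicate 2 gave 53 and replicate 3 gave 115. These were 4.05% to 35.8% of members tested. The share of all transcripts called raised fell too, from 1.97% to between 0.271% and 1.51%. The count at 4 h fell to 150, 107 and 119 when untreated replicate 1, 2 or 3 was dropped. It was 148 when 4 h replicate 1 was dropped. At 4 h these were 33.3% to 46.7% of members tested, against 1.53% to 1.99% of all transcripts. Each such fit had fewer libraries in a group, and the cause of the falls was not tested.

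The members' levels differed between replicate numbers as a group, in a way the rule did not set. In each of the 5 groups the summed level was highest in replicate 1 and lowest in replicate 3. In untreated cells it was 0.607%, 0.413% and 0.223% of the rescaled TPM in replicates 1, 2 and 3, at 2 h 3.58%, 3.47% and 2.13%, and at 4 h 5.80%, 4.77% and 3.28%. Averaged over the 5 groups, 258 of 324 members deviated upward in libraries numbered 1 and 46 in those numbered 3, with median log2 deviations of 0.47 and -0.50. Of the 27705 other transcripts, 15577 deviated upward in libraries numbered 1 and 14427 in those numbered 3, with medians of 0.09 and 0.03. Untreated replicate 1 was also the deepest library, with 11892599 estimated counts against 7790564 and 7774234 in replicates 2 and 3, and the most abundant transcript took 11.9% of its counts against 17.5% and 34.8%. The part of depth and of that transcript in the members' levels was not tested.

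The rule set every library of 2 h and 4 h above all 3 untreated libraries, so it fixed a rise within each replicate number. Ratios and counts against untreated cells within a number are therefore description only. The members' summed level at 2 h was 5.89, 8.39 and 9.54 times that of the same-numbered untreated library for numbers 1, 2 and 3. At 4 h it was 9.55, 11.5 and 14.7 times. The lower ratio in number 1 went with its higher untreated level. Of the 324 members, 161 were at least 4-fold and 297 at least 2-fold at 2 h within every number. The summed level at 4 h was 1.62, 1.38 and 1.54 times that at 2 h, and 144 members were higher at 4 h in all 3 pairs while 12 were lower in all 3. Among the other transcripts with at least 5 TPM at 2 h, 9.28% were higher and 28.0% lower in all 3 pairs. The rule's conditions at 4 h bear on both counts of members. The flat first hour held less evenly, as 267 members were under 2-fold at 30 min within every number and 209 at 1 h, and 28 were at least 4-fold at 1 h in at least 1 number.

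**Figure D5:**
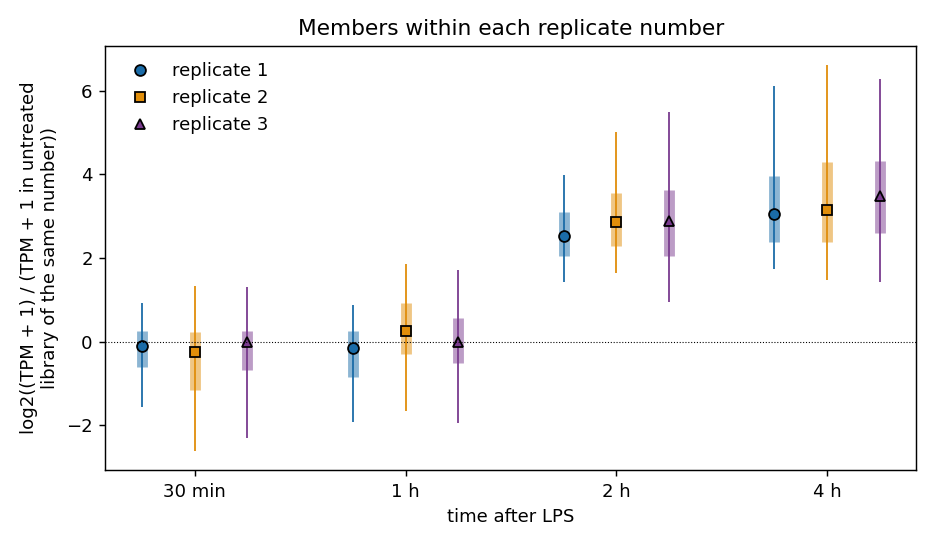
Members' log2 fold over the untreated library of the same replicate number (1 TPM added to each) at each time after LPS. Symbols are medians over the 324 members, thick bars run between quartiles and thin lines from the 5th to the 95th percentile. Median folds were 5.75, 7.32 and 7.43 at 2 h and 8.29, 8.89 and 11.2 at 4 h in numbers 1, 2 and 3.

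The members' median length was 1671 nt (quartiles 767 and 2939 nt), against 1567 nt (692 and 3133 nt) for the other transcripts with at least 5 TPM at 2 h and 1041 nt for all transcripts. The shortest had 352 nt and the longest 23201 nt. The ratio of 4 h to 2 h was 1.24 at the median for the 110 members under 1000 nt, 1.51 for the 138 from 1000 to 3000 nt and 1.35 for the 76 above that, with quartiles that overlapped widely.

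Counts limited the members most before the rise. At least 10 estimated counts were found in each of the 6 libraries of 2 h and 4 h for 292 of 324 members. In untreated replicates 1, 2 and 3 that many were reached by 243, 205 and 157 members, while 21, 48 and 68 had 0. Estimated counts were whole, within 0.001, in all 15 libraries for 8 members (2.47%), against 2.60% of the other transcripts with at least 5 TPM at 2 h. For the remaining 316 members, reads shared with other transcripts had been divided among them, and the error of that division is not in the files.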

How the data were processed

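The authors deposited, for each of 15 libraries, an estimated count and a TPM per transcript, made with kallisto 0.44.0 per the submitters' processing notes. Annotation, genome build and fragment length: not given in the sources used here. From the authors' files, the deposited TPM values were rescaled as the rule asks, and the members were found from them with Python 3.11.15. The deposited estimated counts were rounded to whole numbers and tested with edgeR 4.0.16 (quasi-likelihood test, all 15 libraries in 1 fit, TMM factors 0.679 to 1.52, filterByExpr with a minimum count of 10 and total of 15), with Benjamini-Hochberg adjustment over all 46186 transcripts tested. Libraries held 7537521 to 11892599 estimated counts. DESeq2 1.42.0 and limma 3.58.1 were alternatives.

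Deviations from group means over 28029 transcripts correlated for all 30 same-numbered pairs of libraries (0.272 to 0.561). The replicate number was therefore taken to pair libraries. Of 60 other pairs, 0 correlated over 0.1. Deviations sum to 0 within a group, so these low values follow from the same-numbered pairs and are not separate support. This check was made on the data, as the labels do not say what the number marks.

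Members and gene lists were chosen with earlier results of these data known. With no pairing of identifiers to genes, the gene lists, gene sums and promoter comparison could not be run, and only the 2 members of highest mean over 2 h and 4 h are named, by a rule that allows 2 identifiers. Members described without an identifier were picked after their values were seen.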

Additional observations from a re-analysis of the deposited data

Results flagged for a closer look

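In the edgeR fit with the replicate number as a block, 11 of 319 tested members (3.45%) were raised at 4 h against 2 h. That fit called 0.338% of all transcripts raised and 0.491% lowered. The rule left out transcripts that fell by 4 h, so these shares are not a like comparison. For the 11, the change from untreated cells differed between the 2 times by a direct test of that difference. All 11 were higher at 4 h in the 3 same-numbered pairs. The block fit picked them by change within those pairs, so this is not separate support. Without the block the test called 0 of them.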

How the results depend on the processing

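The rule gave 204 members with a constant of 5 in place of 1, of which 164 were among the 324. On CPM with TMM factors it gave 469, of which 240 (74.07% of the 324 and 51.2% of the 469) were shared; with the deposited TPM, a constant of 0.1 or no floor at 2 h it gave 319, 335 and 332. Leaving out a library or all libraries of a number gave 282 to 451 members, of which 227 to 319 were shared. At 4 h against 2 h the count of called members was 11 with the replicate block (3.45% of members tested, against 0.338% of all transcripts called raised). In DESeq2 it was 12 (3.76% against 0.745%). All fits that left out a library were edgeR without the block, and each called 0, as that fit did with all libraries. The fit with the block and DESeq2 were not run without a library. At 1 h against 30 min the count was 2 in DESeq2, 1 raised and 1 lowered (0.313% each, against 0.23% and 0.253% of all transcripts). Without a library it was 0 to 1, the 1 being without untreated replicate 1 (0.312%, against 0.00206% of all transcripts raised). At 2 h against untreated cells it was 264 with the replicate block (82.8% against 6.42%) and 269 in DESeq2 (84.3% against 5.40%). It was 92 (28.8% against 1.16%) without TMM factors and without the most abundant transcript. Without a library it was 13 to 135 (4.05% to 42.1%, against 0.271% to 1.9% of all transcripts). At 4 h against untreated cells it was 107 to 243 without a library (33.3% to 75.7%, against 1.53% to 3.7% of all transcripts). The causes were not tested, other than that fits without a library have fewer samples. Gene sums could not be run. Shared reads among isoforms and low untreated counts limit the members' errors.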
